A study of Danio rerio with 12 samples.

Results

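The genes described here encode the light-sensing machinery of rods, cones and pineal photoreceptors: visual opsins, the transducin, phosphodiesterase and cyclic nucleotide-gated channel subunits that follow them, the arrestins, kinases and calcium sensors that end the response, and the enzymes of the retinoid cycle and of melatonin synthesis. They were chosen by symbol alone, as the genes of the array whose name equals or begins with 1 of 32 stems of this pathway, and 68 of the 18338 genes matched. Of these, 15 belong to rods, 24 to cones, 2 to the pineal organ (aanat2 and asmt2), 19 are shared by rods and cones or are assigned to neither, 3 serve the retinoid cycle and 5 share a stem but are known mainly from other tissues. For 5 stems (exorh, arr3, cnga3, cngb1 and rho) no gene was analysed here, so rhodopsin itself, the pineal rhodopsin, the cone arrestins and a channel subunit each of rods and cones are missing from the description.

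Brain RNA of 12 adult male zebrafish of the wild-type AB strain, 11 months old, was measured on 1 array per fish, with 3 fish in each of 4 groups. All fish spent the night before alone in the test tank, and the test lasted 30 minutes. Bystanders to interacting conspecifics (BIC) watched a fighting pair of males through a one-way mirror and were attentive to it, bystanders attentive to non-interacting conspecifics (BANIC) attended to a pair that did not fight, bystanders inattentive to non-interacting conspecifics (BINIC) had the same view but did not attend, and isolated fish (ISOL) had no fish to watch. The fish were picked from a larger set by their behavior, so each group stands for a behavioral profile and not for a random sample of a treatment. Fish are named by group and replicate number, as in BIC1.

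In a photoreceptor, light turns an opsin on, the opsin activates transducin, and transducin releases phosphodiesterase 6 from its inhibitory gamma subunits. The enzyme then lowers cyclic GMP, and the cyclic nucleotide-gated channels close. Recoverin and the guanylate cyclase activating proteins sense the fall in calcium that follows, and the arrestins and opsin kinases switch the opsin off. In fish these genes are best known from the retina, but the pineal organ on the roof of the brain has photoreceptor cells of its own that use much of the same machinery and make melatonin at night through aanat2. The sample titles give the tissue as brain, and the study describes its samples as whole brain. Whether the pineal organ or any part of the eye was kept at dissection is not given in the sources used here.

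The values are log2 signals after RMA, the authors' normalization, so a difference of 1 is a doubling of signal. Levels of different genes cannot be set against each other as amounts of RNA. The signal of the median gene serves below only to mark genes or lists as dim. Array medians lay between 5.54 and 5.59, and the signals ranged from 0.93 to 12.49. The neuronal gene elavl3 lay between 10.18 and 10.42 over the 12 fish, snap25a between 10.88 and 11.10, and the myelin gene mbpa between 10.43 and 10.84. The glial gene gfap varied more, from 7.19 in BANIC2 to 7.94 in BINIC1. In whole-brain RNA, fewer cells of a type and less RNA per cell cannot be told apart.

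The phototransduction genes did not sort the fish by group. Several of them stood at a high level in BANIC1, BINIC1, ISOL2 and ISOL3, 4 fish of 3 groups, and at a low level in all 3 BIC fish, in BANIC2, BANIC3 and BINIC2, and in 1 of the isolated fish, ISOL1. gnat1, the alpha subunit of rod transducin, lay at 3.24, 2.91 and 3.11 in BIC1, BIC2 and BIC3, at 6.59, 2.94 and 3.14 in the BANIC fish, at 6.24, 2.91 and 5.63 in the BINIC fish and at 2.89, 6.32 and 6.56 in the ISOL fish. Thus 5 fish were high and 7 low, with a gap of 2.39 between them, and every group except BIC held both kinds. The SD over the 3 fish was 0.168 in BIC against 2.05 in BANIC, 1.77 in BINIC and 2.05 in ISOL.

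pde6gb, an inhibitory gamma subunit of the rod phosphodiesterase, lay at 5.72, 5.64 and 5.71 in BIC, at 8.71, 5.92 and 5.96 in BANIC, at 8.60, 5.77 and 7.06 in BINIC and at 5.80, 8.28 and 8.57 in ISOL. BINIC3 stood between the 4 high fish and the rest. saga, a rod arrestin, was at 4.11, 4.16 and 4.32 in BIC, 7.07, 4.27 and 4.18 in BANIC, 6.28, 4.14 and 4.60 in BINIC and 4.08, 6.63 and 6.33 in ISOL. The 4 high fish were the same, at a gap of 1.68 above BINIC3. cnga1a, a subunit of the rod channel, gave 3.27, 3.26 and 3.17 in BIC, 5.27, 3.22 and 3.35 in BANIC, 4.95, 3.29 and 3.69 in BINIC and 3.35, 5.19 and 5.11 in ISOL. Here too BINIC3 came next, 1.26 below the lowest of the 4. pde6a, a catalytic subunit of the rod enzyme, spread less, from 3.24 in BANIC2 to 4.79 in ISOL2, with the same 4 fish highest and BINIC3 next at 4.09. The remaining rod genes included pde6ga, with 6.79 in BANIC1, 5.82 in BINIC1, 5.63 in ISOL2 and 5.61 in ISOL3 and at most 4.59 elsewhere, and genes that hardly varied, such as grk1a, a rod opsin kinase, between 3.94 and 4.56.

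**Figure D1:**
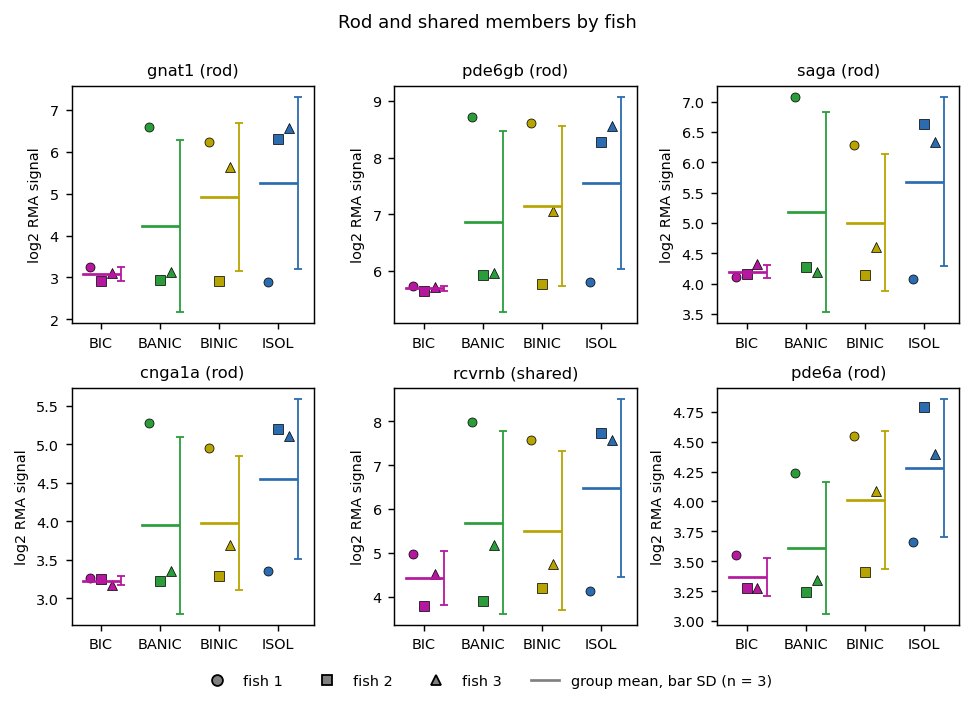
Log2 RMA signal (vertical axis) of 5 rod genes and of the recoverin gene rcvrnb, which is shared by rods and cones, in the 3 fish of each group (horizontal axis), each fish with its own symbol, with the group mean as a line and its SD as a bar. In gnat1 the fish BANIC1, BINIC1, BINIC3, ISOL2 and ISOL3 lie between 5.63 and 6.59 and the other 7 between 2.89 and 3.24.

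Among the genes of both cell types, rcvrnb had the widest range, 4.20 on the log2 scale. This recoverin gene and rpe65a below are singled out after their values were seen. rcvrnb lay at 4.98, 3.78 and 4.52 in BIC, 7.97, 3.90 and 5.19 in BANIC, 7.57, 4.19 and 4.76 in BINIC and 4.14, 7.73 and 7.57 in ISOL. BANIC1, BINIC1, ISOL2 and ISOL3 were high again, and BINIC3 was among the low fish. The recoverin genes rcvrna and rcvrn3 had the same 4 fish highest with smaller ranges, 1.76 and 1.51. In rcvrn2, with a range of 1.55, BINIC3 was high as well, at 4.53 against 4.49 in BINIC1, and the next fish was at 3.84. crx, a homeobox factor of photoreceptors and pinealocytes, ran from 4.44 in ISOL1 to 5.57 in BANIC1, followed by 5.45 in ISOL3, 5.22 in ISOL2 and 5.16 in BINIC1. The peripherin-like gene prph2la, of the disc rim family, had the 4 fish at 4.77 or more and no other fish above 4.23. By contrast rgs9a, rgs9b and rgs9bp, which speed up the shutdown of transducin, stayed within ranges of 0.61, 0.48 and 0.42.

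In all, 18 of the 68 genes (26.5%) had exactly BANIC1, BINIC1, ISOL2 and ISOL3 as their 4 highest fish, against 106 of all 18338 genes (0.58%). These 18 were 7 of 15 rod genes, 7 of 19 shared genes, 2 of 24 cone genes (grk7b and cngb3.1), aanat2 and rlbp1a. In 15 of the 68 genes these 4 fish and BINIC3 were the 5 highest, against 90 of all genes. The set of fish was read off these very genes, so both counts describe the pattern and test nothing. In 7 of the 68 genes (10.3%) a gap of more than 1 parted the fish with at least 2 on each side, against 41 of all genes (0.224%): cnga1a, gnat1, pde6ga, pde6gb, saga, pde6hb and rcvrnb. Only 8 genes of the array combined the 4 highest fish with a gap of more than 1 below them. The phototransduction genes among these were rcvrnb, saga, cnga1a, pde6gb and pde6ga, and the others were glmnb, LOC100537796 and LOC100535624, picked out after their values were seen. Values more than 1 above a gene's median of 12 fish were also counted. BANIC1 had them in 10 of the 68 genes (0.109% of all genes) and BINIC1 in 8 (0.153%). The numbers were 7 in BINIC3 (0.0763%), 8 in ISOL2 (0.115%) and 12 in ISOL3 (0.202%). Each of the other 7 fish had 0, where the share of all genes ran from 0.0436% to 0.218%. A count of 0 among 68 genes differs little from such shares.

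The cone genes followed a related order, which differed from that of the rod genes in some of them. BANIC1 was highest in 2 of 24 cone genes against 7 of 15 rod genes. BINIC3 was highest about as often in both, in 10 of 24 cone and 6 of 15 rod genes. pde6hb, an inhibitory gamma subunit of the cone phosphodiesterase, lay at 3.46, 3.22 and 3.59 in BIC, 5.59, 3.61 and 3.43 in BANIC, 6.13, 3.49 and 6.65 in BINIC and 3.38, 4.92 and 5.41 in ISOL. A gap of 1.32 set BINIC3 and the 4 other high fish apart from the remaining 7. pde6ha, its paralog, lay at 6.01, 5.85 and 6.05 in BIC, 6.94, 5.85 and 5.72 in BANIC, 6.87, 5.54 and 7.83 in BINIC and 5.80, 6.87 and 7.58 in ISOL. The same 5 fish were at 6.87 or more and the others at most at 6.05. gnat2, the alpha subunit of cone transducin, lay at 4.32, 4.41 and 4.32 in BIC, 5.19, 4.34 and 4.63 in BANIC, 4.92, 4.52 and 5.96 in BINIC and 4.30, 4.92 and 5.38 in ISOL. BINIC3 was 0.58 above the next fish, ISOL3. opn1sw1, the ultraviolet cone opsin, lay at 3.91, 3.67 and 3.35 in BIC, 3.34, 3.76 and 3.64 in BANIC, 3.65, 3.65 and 5.17 in BINIC and 4.03, 3.73 and 4.40 in ISOL. Here only BINIC3 and then ISOL3 stood out, and BANIC1, high in several rod genes, was the lowest fish. BANIC1 was also the lowest fish in the rod gene rhol. pde6c, the cone gene of next largest SD, had the same 5 highest fish as gnat1, with BANIC1 highest at 5.35. The other 6 cone opsin genes measured (opn1lw1, opn1lw2, opn1mw1, opn1mw3, opn1mw4 and opn1sw2) had ranges of 0.50 to 0.86.

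**Figure D2:**
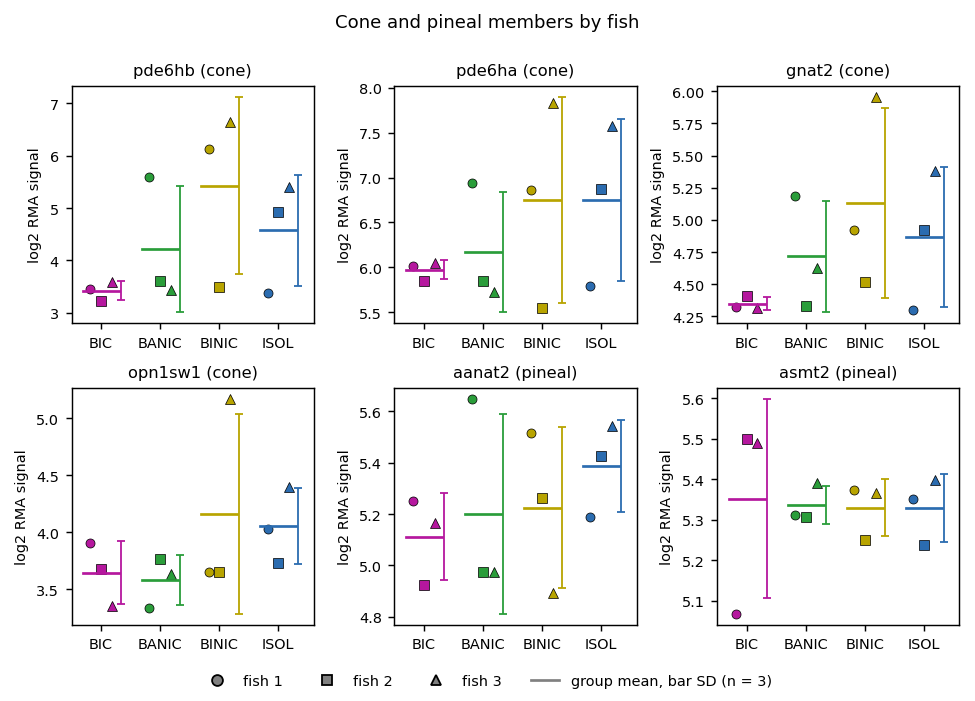
Log2 RMA signal (vertical axis) of the 4 cone genes with the largest SD over the 12 fish and of both pineal genes, by group (horizontal axis), with each fish as a symbol, the group mean as a line and its SD as a bar. BINIC3 is the highest fish in pde6hb (6.65), pde6ha (7.83), gnat2 (5.96) and opn1sw1 (5.17), and the lowest in aanat2 (4.89).

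BINIC3 was the highest of the 12 fish in 21 of the 68 genes (30.9%), namely in 10 of 24 cone genes, 6 of 15 rod genes and 5 of 19 shared genes, against 10.1% of all genes. Among its rod genes were the disc rim genes rom1a, at 5.10 with the next fish at 4.13, and rom1b, at 4.57 with ISOL3 at 4.41. BANIC1 was highest in 18 of the 68 genes (26.5%, against 5.94% of all genes), of which 7 were rod genes and 2 were cone genes. The other high fish showed no such excess or a small one. BINIC1 was highest in 4 (5.88%, against 10.7% of all genes), ISOL2 in 7 (10.3%, against 13.4%) and ISOL3 in 6 (8.82%, against 7.11%). BINIC3 and BANIC1 were singled out on these same values, so the counts test nothing. The median distance from each gene's 12-fish median was 0.38 for rod genes and 0.01 for cone genes in BANIC1, and 0.48 and 0.23 in BINIC3. The 3 BIC fish were highest in 4, 1 and 0 of the 68 genes, against 7.25%, 7.15% and 5.85% of all genes.

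aanat2, the pineal enzyme that sets the nightly rhythm of melatonin, lay at 5.25, 4.92 and 5.16 in BIC, 5.65, 4.98 and 4.98 in BANIC, 5.52, 5.26 and 4.89 in BINIC and 5.19, 5.42 and 5.54 in ISOL. The 4 fish high in the rod genes were its highest too, over a range of 0.76, but BINIC3 was its lowest. asmt2, of the family that makes the last step of melatonin synthesis, ranged only from 5.07 to 5.50, with BIC2 and BIC3 highest and BIC1 lowest. Its SD over the 12 fish did not pass the filter for testing. aanat1, the paralog known from the retina, ranged from 4.31 to 4.78 with BINIC3 highest.

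rpe65a, the retinoid isomerase of the pigment epithelium, ranged widely and had the same 5 highest fish as gnat1, BANIC1, ISOL3, BINIC3, ISOL2 and BINIC1, but the next fish was only 0.14 lower. It stood at 7.41 in BANIC1 and 7.02 in ISOL3, between 5.05 and 6.08 in 8 fish, BINIC1, BINIC3 and ISOL2 among them, and at 4.47 in ISOL1 and 4.23 in BINIC2. The retinaldehyde-binding protein genes rlbp1a and rlbp1b had ranges of 1.07 and 0.84. Of the genes that share only a stem, pde6d, which carries prenylated proteins in many tissues, had a range of 0.48. gucy2cb, related to the guanylin receptor of the gut, was highest in BANIC3 at 4.11. The other 3 of these 5 genes had ranges of 0.34 to 0.52.

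**Figure D3:**
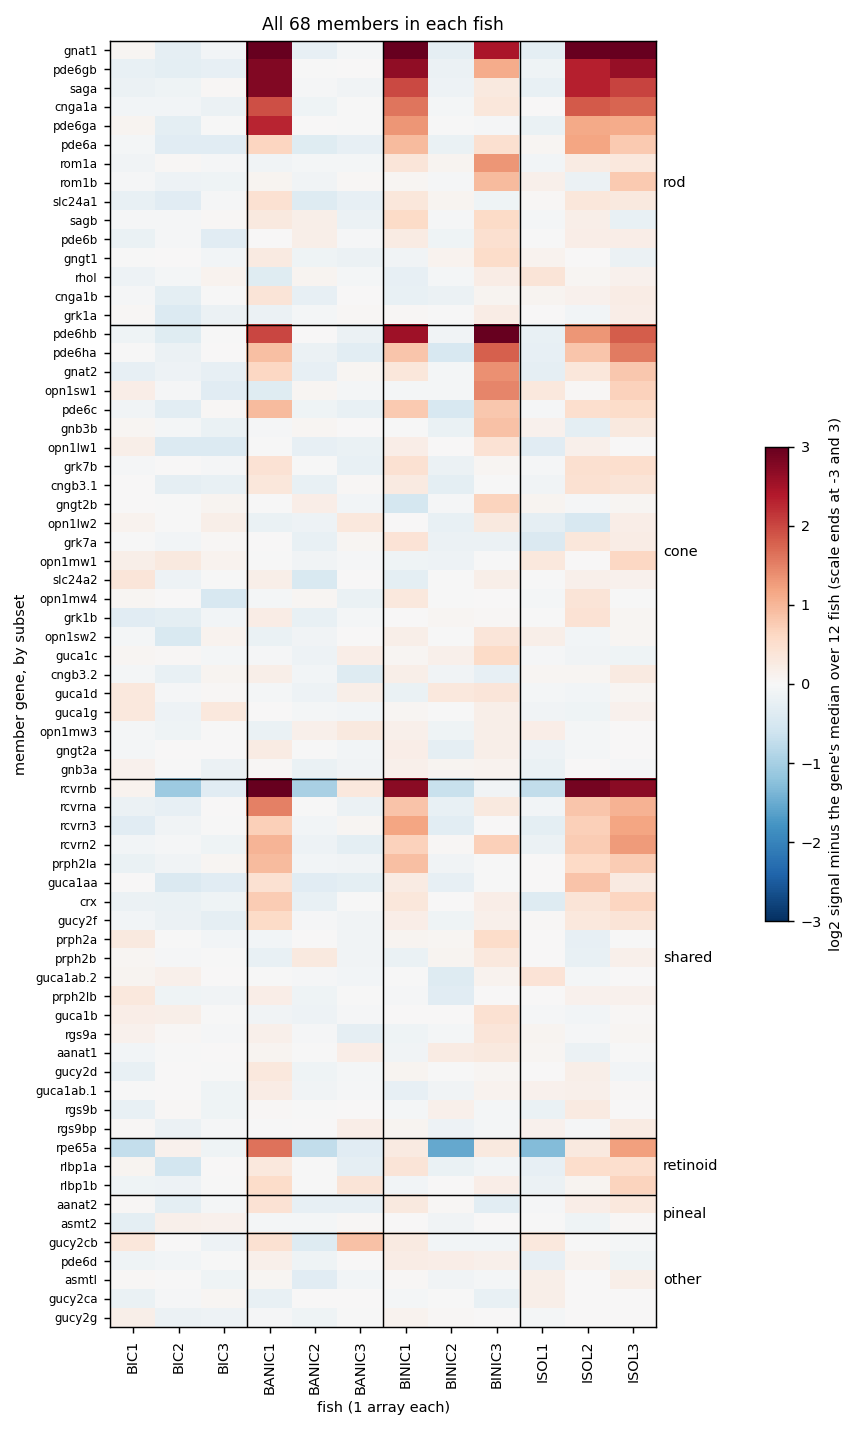
All 68 genes (rows, by subset and falling SD) in the 12 fish (columns, by group), coloured by log2 signal minus the gene's median over the 12 fish, red above and blue below, with the colour scale ending at -3 and 3. The strongest red of the rod, cone and shared genes lies in BANIC1, BINIC1, BINIC3, ISOL2 and ISOL3, though not in all 5 for each gene, and the 3 BIC columns hold no value more than 1 above a gene's median.

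The range over the 12 fish exceeded 1 in 25 of the 68 genes (36.8%), against 4.21% of all genes. Within BIC it did so in 1 of them, within BANIC in 15, within BINIC in 19 and within ISOL in 15. How many of all genes had such a range within a group was not counted. The median range of the 68 genes within a group was 0.26 in BIC, 0.45 in BANIC, 0.50 in BINIC and 0.39 in ISOL, where that of all genes was 0.19, 0.18, 0.19 and 0.21. The share of a gene's sum of squares that lay between the groups had a median of 26.4% in the 68 genes and 28.2% in all genes. For gnat1 it was 26.3%, for rcvrnb 21.1%, and for rpe65a 5.53%.

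The first comparison asked whether fish that watched a fight differed from isolated fish. The phototransduction genes were lower in BIC on average, but ISOL1 was close to the BIC fish in genes such as gnat1 and pde6gb. The median log2 fold change of the 68 genes was -0.19, with -0.36 for the rod genes, -0.14 for the cone genes and -0.13 for the pineal genes, against -0.01 for all genes. By limma, none of the 65 genes that passed the SD filter was called, which required an FDR under 0.05 together with a log2 fold change of 1 or more in size, where 0.0763% of all tested genes were. At an unadjusted P under 0.05, 21 of the 65 were lower in BIC and 0 higher, where 3.04% of all tested genes were lower and 2.63% higher. These 21 were 8 rod, 6 cone and 7 shared genes. In 10 of the 68 genes all 3 BIC fish lay below all 3 ISOL fish (6.01% of all genes), and in 0 all lay above (4.68%). With 1 fish left out the median of the rod genes ran from -0.41 to -0.30 and that of the cone genes from -0.20 to -0.09, the last without BIC3.

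The smallest P was that of pde6a, with 3.36 ± 0.16 in BIC and 4.28 ± 0.58 in ISOL (mean and SD, n = 3 fish), a log2 fold change of -0.92 (SE 0.24, adjusted p = 0.524 by limma). BIC1, at 3.55, was the fish of BIC nearest to ISOL1, at 3.66, so the groups did not overlap. For pde6gb the fold change was -1.86 (SE 0.54) and for cnga1a -1.32 (SE 0.38). In both, the 3 BIC fish lay just under ISOL1, the low isolated fish, at no more than 5.72 against 5.80 for pde6gb. gnat1 and saga had differences of -2.17 (SE 0.72) and -1.48 (SE 0.49), and there ISOL1 lay below every BIC fish. slc24a1, the rod calcium exchanger, lay at 4.69, 4.60 and 4.90 in BIC and 4.95, 5.26 and 5.22 in ISOL, a difference of -0.42 (SE 0.14). Those of smallest P among the shared genes were gucy2f, a guanylate cyclase of photoreceptors, at -0.42 (SE 0.13), guca1aa, which activates such cyclases, at -0.64 (SE 0.21), and rcvrna at -0.74 (SE 0.24). gucy2f lay at 3.78, 3.70 and 3.61 in BIC and 3.91, 4.19 and 4.25 in ISOL. guca1aa lay at 4.01, 3.57 and 3.66 in BIC and 4.01, 4.86 and 4.27 in ISOL, and rcvrna at 3.54, 3.45 and 3.72 in BIC and 3.63, 4.54 and 4.75 in ISOL. In each of these 3 genes ISOL1 was nearer to BIC1 than to ISOL2 or ISOL3.

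Leaving out ISOL1 turned 12 of the 65 genes into calls, where 25 of all tested genes (0.273%) were called: gnat1 (-3.35), rcvrnb (-3.23), pde6gb (-2.73), saga (-2.28), cnga1a (-1.92), pde6hb (-1.74), pde6ha (-1.25), pde6a (-1.23), pde6ga (-1.20), rcvrn3 (-1.10), rcvrn2 (-1.09) and rcvrna (-1.07). Leaving out any other array gave 0 calls. In these 12 genes ISOL1 was the low isolated fish, so only ISOL2 and ISOL3, both high, remained. The calls follow from that removal and support nothing. The number at an unadjusted P under 0.05 was 21 with all fish, 11 without ISOL2, 8 without ISOL3 and 12 without BIC2. With a fish left out, the share of all tested genes past that P was not counted. Such changes therefore cannot be called particular to the phototransduction genes.

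Attentive fish that watched a calm pair gave the second comparison. The median log2 fold change of the 68 genes was -0.11 in BANIC, with -0.26 for the rod, -0.14 for the cone and -0.09 for the pineal genes. These medians depended on single fish. Without ISOL1 they were -0.21 for the 68 genes, -0.34 for the rod and -0.24 for the cone genes, without ISOL3 they were -0.05, -0.15 and -0.02, and without BANIC2 -0.04, -0.15 and -0.05. For the cone genes the median was -0.08 without BANIC3 and -0.05 without ISOL2, and for the 68 genes it was -0.18 without BANIC1 and -0.07 without BANIC3. Again 0 of the 65 genes were called by limma (0.109% of all tested genes). At an unadjusted P under 0.05, 3 were lower (2.94% of all tested genes) and 0 higher (3.01%). These were opn1sw1 (-0.47, SE 0.18), opn1mw1, a green cone opsin (-0.37, SE 0.16), and pde6a (-0.67, SE 0.30). opn1mw1 lay between 2.23 and 2.33 in BANIC and at 2.64, 2.35 and 2.96 in ISOL, without overlap but with ISOL2 next to BANIC1. The mean of opn1mw1 over the 12 fish, 2.42, was far below that of the median gene, 5.75, and its detection was not tested. The opsin opn1sw1 overlapped, since BANIC2, at 3.76, lay above ISOL2, at 3.73. All 3 BANIC fish lay below ISOL in 2 of the 68 genes (6.24% of all genes) and above it in 0 (4.88%). The number at P under 0.05 was 17 without BANIC1, 12 without ISOL1, 1 without BANIC3 and 0 without ISOL3. Here too the share of all tested genes was not counted with a fish left out.

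The third comparison set inattentive bystanders against isolated fish. In BINIC the median log2 fold change of the 68 genes was -0.03, with -0.22 for the rod, 0.07 for the cone and -0.08 for the pineal genes, against 0.01 for all genes. The rod median was above 0 without ISOL3 (0.09) or BINIC2 (0.08) and -0.04 without ISOL2, and the cone median was below 0 without BINIC3 (-0.07), so their directions rested on single fish. The cone median was 0.17 without BINIC2, 0.14 without ISOL3 and 0.04 without ISOL1. That of the 68 genes ran from -0.12 without ISOL1 to 0.06 without BINIC2, with -0.11 without BINIC1, -0.10 without BINIC3 and 0.05 without ISOL3. By limma 0 of the 65 were called (0.0218% of all tested genes). At an unadjusted P under 0.05, opn1mw1 was lower (3.6% of all tested genes) and guca1c and sagb were higher (5.16%). The dim gene opn1mw1 lay at 2.20, 2.17 and 2.32 in BINIC, below all ISOL fish, a difference of -0.42 (SE 0.16, adjusted p = 0.531 by limma). guca1c, a guanylate cyclase activator of cones, lay at 3.86, 3.95 and 4.38 in BINIC and 3.76, 3.70 and 3.66 in ISOL, higher by 0.35 (SE 0.15). sagb, the second rod arrestin, was higher by 0.41 (SE 0.18), but BINIC2, at 4.36, lay below ISOL2, at 4.59. All 3 BINIC fish lay below ISOL in 3 of the 68 genes (7.25% of all genes) and above it in 4 (8.56%), which were guca1c, gnb3a, pde6d and prph2a. Without ISOL1 the number at P under 0.05 was 10, and it was 7 without BINIC1, 6 without BINIC2 and 1 without ISOL3. Again the share of all tested genes was not counted for these fits.

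**Figure D4:**
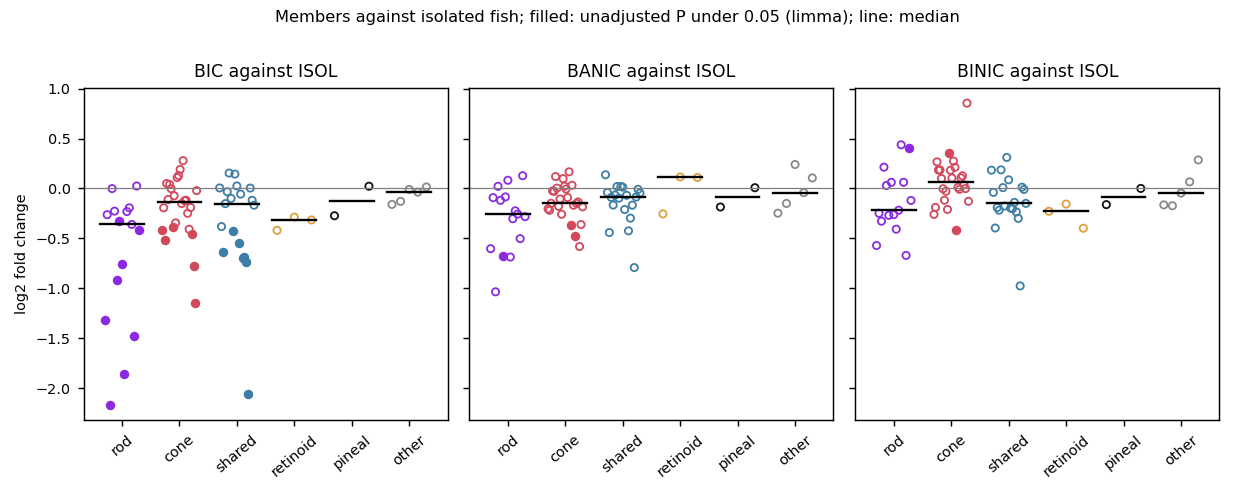
Log2 fold change against ISOL (vertical axis) of each of the 68 genes by subset (horizontal axis) in BIC, BANIC and BINIC, with the median as a line and filled points for an unadjusted P under 0.05 by limma. In BIC the 21 filled points lie below 0, down to -2.17 in gnat1, whereas 3 points are filled in BANIC and 3 in BINIC.

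The 3 comparisons share their ISOL fish, so a high or low isolated fish enters each of them. A fit of all 12 fish asked for any difference among the groups, and the F of limma had an unadjusted P under 0.05 in 3 of the 65 genes (7.13% of all tested genes) and an FDR under 0.05 in 0 (0.207%). The 3 were opn1mw1, rom1a and pde6a, all dimmer than the median gene. The number at an unadjusted P under 0.05 became 14 without ISOL1, 11 without BANIC1, 9 without BINIC2 and 1 without BINIC3 or ISOL3. For these fits as well, the share of all tested genes was not counted. Differences between bystander groups, in which ISOL cancels, were then tested, with adjustment over all genes and the 3 contrasts. Between BIC and BANIC 0 genes of the 65 had an FDR under 0.05 (0.0109% of all tested genes) and 1 an unadjusted P under 0.05 (3.13%). For BIC and BINIC the numbers were 0 (0.0654%) and 9 (7.72%), with pde6hb at -2.00 (adjusted p = 0.719 by limma) and rom1a at -0.63 (adjusted p = 0.768 by limma) first. Between BANIC and BINIC they were 0 (0.0545%) and 1 (7.12%), the latter being rom1a at -0.66 (adjusted p = 0.719 by limma), in which BINIC3 was 0.97 above every other fish.

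Lists of genes outside the 68 were then examined in the same fish. Of 5 genes listed as pineal, 4 had the same 4 highest fish as gnat1: tph2, a tryptophan hydroxylase of serotonin synthesis, and the homeobox genes lhx4, bsx and otx5. How much of their signal in whole-brain RNA came from cells outside the pineal organ was not tested. The remaining gene of the list, gch2, did not. tph2 lay at 5.38, 4.89 and 5.52 in BIC, 6.29, 5.55 and 5.38 in BANIC, 6.40, 5.16 and 5.37 in BINIC and 5.03, 6.15 and 6.44 in ISOL. BINIC3 was not high in tph2, nor in the mean of the 5 genes, where it was lowest at 4.33, with ISOL1 also at 4.33, against 4.93 in BINIC1, 4.88 in BANIC1 and ISOL3, 4.80 in ISOL2 and at most 4.51 in the others. tph1a, a paralog named after its values were seen, was highest in the same 4 fish as well, at 5.94 to 6.41 with the next fish at 5.50.

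Among 31 other photoreceptor genes, 7 (22.6%) had these 4 highest fish, against 0.58% of all genes. The widest spread was that of rbp4l, a retinol-binding protein gene, at 3.45, 3.57 and 3.59 in BIC, 5.87, 3.62 and 3.32 in BANIC, 6.11, 3.61 and 5.03 in BINIC and 3.43, 5.79 and 5.70 in ISOL. Its 5 high fish were those of gnat1, BINIC3 included. aipl1, which helps fold the phosphodiesterase, ranged from 3.71 to 4.77, and tulp1b from 2.38 to 3.58. In 25 non-visual opsin genes 1 had the same 4 highest fish (opn6a), and parapinopsinb, of the family of the pineal ultraviolet opsin, was highest in BINIC1 at 5.29 and BANIC1 at 5.22, followed by 4.89 in ISOL3. Of 14 pigment epithelium genes 2 did so (rdh5 and stra6). The mean of these 14 genes was 4.46 in ISOL2, 4.41 in BANIC1, 4.40 in ISOL3 and 4.36 in BINIC3. It lay between 4.19 and 4.29 in the other fish, with BINIC1 at 4.27.

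In the lists of 56 lens genes, 18 genes of other retinal neurons, 13 skeletal muscle, 8 blood and 9 pituitary genes, 0 had these 4 highest fish. Since only 0.58% of all genes did, a count of 0 in lists this short says little. The mean of the lens genes lay between 3.73 and 3.82 over the 12 fish and that of the other retinal neurons between 4.89 and 4.97, while the mean of the 15 rod genes ran from 3.76 to 4.92. The lens and retinal neuron means lay below the mean signal of the median gene, 5.75, and so did that of the rod genes. Whether the genes of these lists could show a change at their signal was not tested. Skeletal muscle genes were high in BANIC3, where mylpfa, a myosin light chain, stood at 7.35 and ckma, a creatine kinase, at 6.67, with the list mean at 5.11 against 3.96 to 4.42 in the other fish. BANIC3 was not among the fish high in the rod genes. Blood genes varied from a mean of 5.01 in ISOL2 to 5.96 in BIC3. The mean of the pineal list moved with the rod genes except in BINIC3, though gch2 did not share the 4 highest fish. Against ISOL, the BIC fish had a median log2 fold change of -0.36 over the 5 pineal genes, with 4 lower and 1 higher in direction. At an unadjusted P under 0.05 by limma 2 of these were lower and 0 higher, where 3.04% of all tested genes were lower and 2.63% higher. Over the 31 other photoreceptor genes the median was -0.14, with 7 of 23 tested genes lower and 0 higher, and over the 14 pigment epithelium genes it was -0.13, with 2 of 13 tested genes lower and 0 higher. For the lens genes it was 0.01, with 0 of 39 tested genes past that P, which differs little from those shares in so short a list. None of the genes in these 4 lists had an FDR under 0.05, and the part of the lists in the differences of the 68 genes between groups was not tested.

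**Figure D5:**
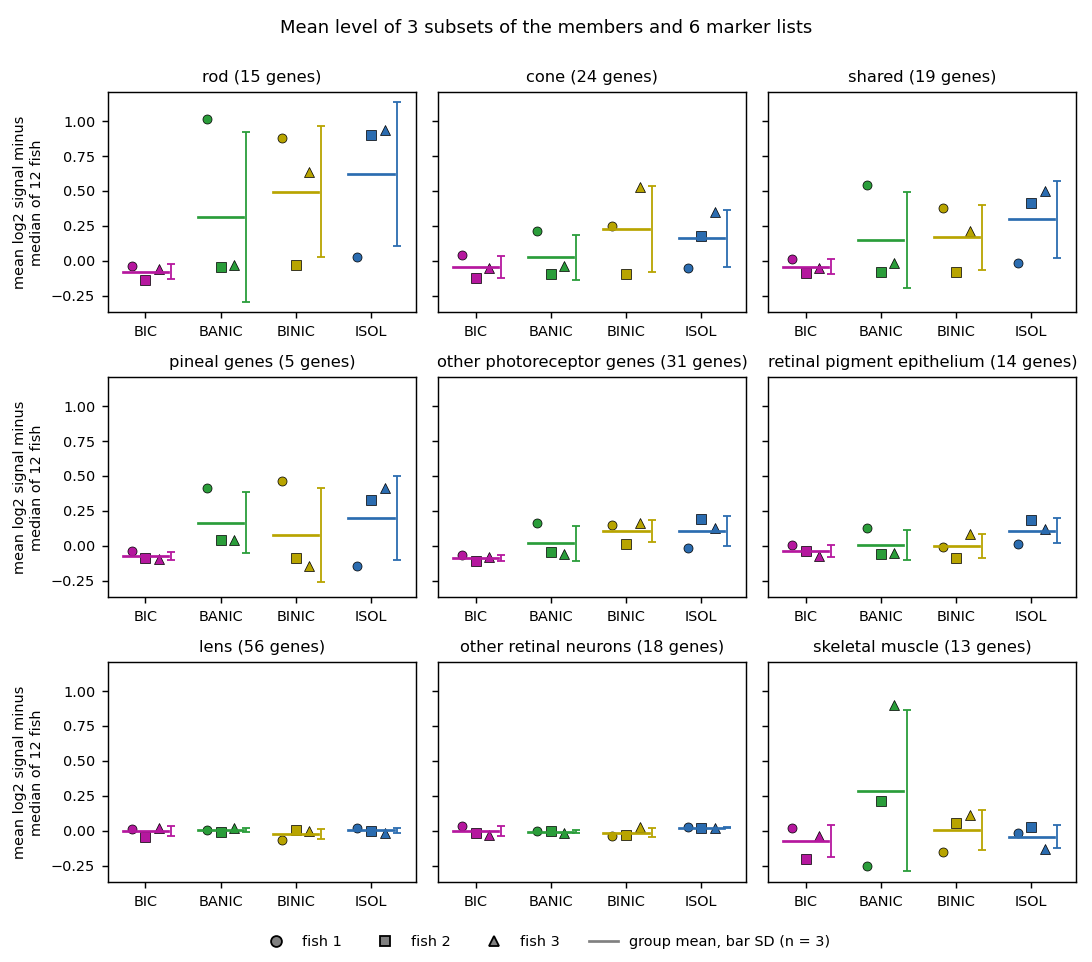
Mean log2 signal of 3 subsets of the phototransduction genes and of 6 lists of other genes, minus the median of the 12 fish (vertical axis, the same scale in all panels), by group (horizontal axis), with each fish as a symbol, the group mean as a line and its SD as a bar. BANIC1, BINIC1, ISOL2 and ISOL3 are high in the rod, cone, shared, pineal and other photoreceptor panels. BINIC3 is high in the same panels except the pineal one. In the pigment epithelium panel BANIC1, BINIC3, ISOL2 and ISOL3 are the highest fish. The lens and other retinal neuron panels are flat.

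Most of the 68 genes were read by 1 probe set, and 5 by a pair. The probe set of lower mean did not show the same fish in rcvrn2, where it ran from 2.38 to 2.76 while the other ran from 3.52 to 5.08. In gngt1, the gamma subunit of rod transducin, it was the reverse. The brighter probe set ranged from 2.28 to 3.02 with BINIC3 highest, and the dimmer one had its highest values in BINIC1 (2.62), ISOL2 (2.49), ISOL3 (2.26) and BANIC1 (2.20), against at most 2.03 in the other fish. Another 4 probe sets that name a gene of these stems together with other genes were not used, and binding of paralogs to each other's probes was not tested.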

How the data were processed

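Total RNA from the brains of 12 fish was hybridized, 1 fish per array, to zebrafish gene 1.1 ST arrays of Affymetrix. The authors normalized the arrays by RMA in oligo, so the deposited values are log2 signals, 1 per probe set, with no counts behind them, and 3 arrays per group limit the precision. The table holds 23467 probe sets. Those that the platform annotation gives exactly 1 gene (19283) were kept, with the probe set of highest mean per gene, which left 18338 genes. All 68 phototransduction genes have the same symbol in RefSeq (assembly GRCz12tu). Genes whose SD over the 12 arrays exceeded the median SD of 0.127 were tested (9169, of which 65 are phototransduction genes; gucy2ca, gucy2g and asmt2 were not).

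Each group was compared with ISOL on their 6 arrays in limma 3.58.1 under R 4.3.3, after the study's methods, two-sided, with Benjamini-Hochberg adjustment over all tested genes. A call needs an FDR under 0.05 and a log2 fold change of 1 or more in either direction. P-values measure the spread between fish, through a variance per gene that is common to the groups compared and moderated over all genes. Group SDs differed widely in genes such as gnat1, which such a fit does not allow for. Genes high in the same fish are not independent, so a count of them is not a count of separate results. Other fits, filters, scalings and left-out arrays were tried as alternatives, and the fits were tested on simulated data. Fish values were printed for the 4 rod and 4 cone genes of largest SD, both pineal genes, and genes of small P in each comparison. The genes and lists were chosen with earlier results of these data known. Correlations between genes over the fish were not computed, because in some of the genes the fish fall into separate levels.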

Additional observations from a re-analysis of the deposited data

How the results depend on the processing

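In these comparisons, no phototransduction gene was called under any alternative except BIC against ISOL without ISOL1, where the number of calls over the left-out arrays ran from 0 to 12. The numbers at an unadjusted P under 0.05 moved more. They stand without the share of all tested genes, which was not counted under the alternatives. Removal of dim genes left only 4 of the 65 genes to test, so the counts after it cannot be set against the others. In BIC against ISOL the 21 genes became 2 with genes dimmer than the median mean signal removed (64 of the 68 genes are that dim), 10 in a fit of all 4 groups, 12 with a trended and robust eBayes, 8 to 29 with 1 array left out and 3 without BANIC1, BINIC1, ISOL2 and ISOL3. The 3 genes in BANIC against ISOL became 0 with dim genes removed and 0 to 17 with 1 array left out. In BINIC against ISOL they became 1 with dim genes removed, 1 to 10 with 1 array left out and 1 without those 4 arrays. For any difference among the groups, 3 genes became 0 with dim genes removed, 1 with a trended and robust eBayes, and 1 to 14 with 1 array left out. Without the 4 arrays the median log2 fold change in BIC against ISOL was -0.05 for the 68 genes (-0.19 with all), -0.12 for the rod genes (-0.36) and 0.03 for the cone genes (-0.14). These 4 arrays were chosen after seeing the data for their high values in the same genes and leave ISOL1 as the only isolated fish, so lower numbers follow from the choice and support nothing. With 1 array left out, the median of the 68 genes ran from -0.26 to -0.15 in BIC, -0.21 to -0.04 in BANIC and -0.12 to 0.06 in BINIC, that of the rod genes from -0.34 to -0.15 in BANIC and -0.25 to 0.09 in BINIC, and that of the cone genes from -0.24 to -0.02 in BANIC and -0.07 to 0.17 in BINIC. The cause of the other changes was not tested.

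The replicate numbers of the labels do not mark shared animals, and fish of the same number did not deviate together from their group means (correlations over genes of 0.192, 0.096 and -0.006 for BIC with ISOL, -0.135, 0.034 and 0.099 for BANIC and -0.117, -0.151 and -0.085 for BINIC). With the number as a replicate block, 23 genes had an unadjusted P under 0.05 in BIC, 2 in BANIC and 1 in BINIC. No share of all tested genes was counted for that fit.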
